A study of Mus musculus with 8 samples.

Results

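Epithelial junction genes encode the proteins that seal, glue and couple neighbouring epithelial cells, and they were examined here in cancers and control tissue of the mouse gastric squamous-columnar junction (SCJ), the line where the squamous forestomach meets the glandular stomach. Members were chosen by gene symbol: all numbered claudins (Cldn), desmogleins (Dsg), desmocollins (Dsc), plakophilins (Pkp), zonula occludens genes (Tjp) and connexins of the a, b and c groups (Gja, Gjb, Gjc), with 13 further genes named singly, among them Cdh1, Epcam, Ocln, Jup and Dsp. The rule took 70 of the 23361 genes of the deposited table: 25 claudins, 7 other tight junction genes, 4 cadherin and Epcam genes, 4 catenin genes, 14 desmosomal genes and 16 connexins.

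Tight junctions close the space between cells through claudins and occludin, which the zonula occludens proteins tie to the cytoskeleton. Adherens junctions hold cells together through E-cadherin (Cdh1), whose tail binds p120-catenin (Ctnnd1) and beta-catenin (Ctnnb1), and beta-catenin in turn binds alpha-catenin (Ctnna1). Desmosomes pair desmogleins with desmocollins outside the cell and anchor keratin filaments through plakoglobin (Jup), plakophilins and desmoplakin (Dsp), and connexins form the channels of gap junctions. Stratified squamous epithelium uses its own desmosomal isoforms, such as Dsg1, Dsg3, Dsc1, Dsc3 and Pkp1, while simple glandular epithelium relies on Dsg2, Dsc2 and Pkp2, and Cldn18 is the main claudin of the gastric lining.

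The 5 cancers are labelled Trp53-/-Rb1-/- and were cut out of the SCJ of tamoxifen-treated Lgr5eGFP-Ires-CreERT2 Trp53loxP/loxP Rb1loxP/loxP Ai9 mice along the border of their tdTomato signal, and Cre in them was driven by the Lgr5 locus. The 3 controls are labelled wild type and are SCJ tissue of stomachs of age-matched mice, and the labels name no Cre allele or tamoxifen for them. RNA was measured by sequencing of polyA+ libraries and is given as FPKM (sequenced fragments corrected for transcript length and library size, so that genes can be compared), rounded to whole numbers, and its depth is unknown. The labels do not say that each sample came from another animal, so p-values measure the spread between these samples. Rb1, a targeted gene, had 4 to 6 FPKM in the cancers against 9 to 10 in the controls, and Trp53, the other, had 12 to 30 and 16 to 19.

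The libraries differed in more than junction genes. FPKM summed to between 403569 and 573858 in the cancers and between 887141 and 992550 in the controls, and the 10 most abundant genes took 11.1% to 19.6% and 39.3% to 44.3% of it. Rescaling every library to the same sum (TPM) therefore moved the median log2 difference of all genes (mean log2(FPKM + 1) of the cancers minus that of the controls) from -0.04 to 0.81, and each direction below is given with its value after this rescaling where it turned. Summed FPKM of 9 endocrine markers ran from 8218 to 18463 in the cancers and from 127 to 191 in the controls. Summed FPKM of 14 squamous markers (Krt5, Krt13 and others) was 6, 128, 1256, 4215 and 1774 in cancers 1 to 5 and 7110, 11389 and 9750 in the controls, and that of 6 pit and neck cell markers (Tff1, Muc5ac and others) was 691, 72677, 5226, 46224 and 15908 and 205368, 146212 and 214340. The controls thus held both epithelia of the SCJ, while cancer 1 held almost no squamous and little pit and neck marker RNA. Of the 14 squamous markers 8 were lower in the cancers without overlap and 0 higher. The others overlapped, and cancer 4 exceeded every control in Krt5 (574 against 128 to 203) and Krt14 (403 against 100 to 143), among others. Summed FPKM of 7 hepatocyte markers was 45, 20, 60, 1 and 582 in the cancers and 1 in each control. In bulk tissue, fewer cells of a type and less RNA per cell cannot be told apart, and the part of cell type content in the results below was not tested.

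The promoters of the 4 epithelial members that rose and of Cldn18, the most abundant member in the controls, are shown because the make-up of the claudins and the rise of Epcam are described through these 5 genes. Each window holds the 250 bases before an annotated start in RefSeq (GRCm38.p6), read 5′ to 3′ on the strand of the gene. Capitals mark the E-boxes CAGGTG, which reads CACCTG on the other strand and is a motif that Snail and Zeb repressors can bind, and CAGCTG, a motif of basic helix-loop-helix factors. Cldn3 is at chr5:134985964-134986213 (plus strand), Cldn4 at chr5:134946935-134947184 (minus), Cldn7 at chr11:69964529-69964778 (plus, outer start) and chr11:69965171-69965420 (plus, inner start), Epcam at chr17:87635729-87635978 (plus) and Cldn18 at chr9:99717268-99717517 (minus, outer start) and chr9:99710064-99710313 (minus, inner start).
Cldn3: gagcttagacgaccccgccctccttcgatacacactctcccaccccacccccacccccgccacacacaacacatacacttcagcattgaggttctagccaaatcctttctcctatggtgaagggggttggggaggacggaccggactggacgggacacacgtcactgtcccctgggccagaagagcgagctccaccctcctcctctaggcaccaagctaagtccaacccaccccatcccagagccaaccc
Cldn4: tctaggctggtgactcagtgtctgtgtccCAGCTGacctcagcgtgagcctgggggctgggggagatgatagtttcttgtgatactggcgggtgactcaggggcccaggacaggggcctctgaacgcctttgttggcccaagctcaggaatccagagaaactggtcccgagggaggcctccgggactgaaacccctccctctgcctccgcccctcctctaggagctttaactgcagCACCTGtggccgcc
Cldn7 outer: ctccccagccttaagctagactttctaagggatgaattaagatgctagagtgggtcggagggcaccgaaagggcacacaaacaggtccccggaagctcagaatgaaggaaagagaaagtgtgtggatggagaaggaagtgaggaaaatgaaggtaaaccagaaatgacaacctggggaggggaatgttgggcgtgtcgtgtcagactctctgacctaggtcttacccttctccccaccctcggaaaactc
Cldn7 inner: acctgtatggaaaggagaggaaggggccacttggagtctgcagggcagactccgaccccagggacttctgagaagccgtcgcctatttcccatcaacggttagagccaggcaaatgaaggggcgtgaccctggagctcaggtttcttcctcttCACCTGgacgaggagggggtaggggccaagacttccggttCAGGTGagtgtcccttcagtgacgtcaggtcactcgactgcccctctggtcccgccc
Epcam: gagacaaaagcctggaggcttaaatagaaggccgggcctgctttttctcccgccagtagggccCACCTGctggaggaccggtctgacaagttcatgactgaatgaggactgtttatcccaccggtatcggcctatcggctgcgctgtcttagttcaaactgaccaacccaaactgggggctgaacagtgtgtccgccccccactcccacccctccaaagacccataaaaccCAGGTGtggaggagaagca
Cldn18 outer: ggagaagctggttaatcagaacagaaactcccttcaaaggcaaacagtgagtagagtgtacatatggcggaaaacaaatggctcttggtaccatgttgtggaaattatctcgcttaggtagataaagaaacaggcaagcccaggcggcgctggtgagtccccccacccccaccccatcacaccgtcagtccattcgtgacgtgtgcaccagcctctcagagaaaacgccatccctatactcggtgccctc
Cldn18 inner: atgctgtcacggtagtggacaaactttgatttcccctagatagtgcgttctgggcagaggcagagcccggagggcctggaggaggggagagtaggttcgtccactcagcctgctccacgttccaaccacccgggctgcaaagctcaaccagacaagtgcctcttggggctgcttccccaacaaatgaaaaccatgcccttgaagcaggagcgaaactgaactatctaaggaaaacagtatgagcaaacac
The inner Cldn7 window and that of Epcam each hold 2 matches of CAGGTG and Cldn4 holds 1 of each motif, while the Cldn3, outer Cldn7 and both Cldn18 windows have neither. The bases after the inner Cldn7 start were in 0 transcripts of the GENCODE annotation, and those after each other start shown were in 1 or 2. Of the 70 members, 44 had a window in the table, and 12 of them (27.3%) held CAGGTG on either strand, against 19.4% of the 27025 genes with a window. CAGCTG, which reads the same on both strands, was in 7 of the 44 (15.9%) and in 14.7% of all genes, and AACCGGTT, a palindromic Grainyhead motif, was in 0 of the 44 and in 0.137% of all genes. Matches of different motifs were counted separately, overlaps included.

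Of the 70 members, 15 were listed at 0 in every sample, 4 reached an FPKM of 1 in fewer than 3 samples and never more, and 51 reached an FPKM of 1 in 3 or more samples and were tested. In limma on log2(FPKM + 1), with p adjusted over all 14357 genes tested and called below 0.05, 5 members were higher in the cancers and 27 lower. Of all genes tested, 34.5% were called, 16.2% as higher and 18.3% as lower, against 62.7%, 9.80% and 52.9% of the members. No cancer overlapped a control for 34 members, 4 higher and 30 lower (66.7%, against 34.1% of all genes, 14.4% higher and 19.8% lower). The median log2 difference of the 51 was -1.32, against -0.04 for all genes, and with TPM it was -0.59 against 0.81. In both scalings the same number of members, 42 of 51, lay below the median of all genes. With TPM all 5 risers were called again, and of the 27 that fell 11 were called again and 25 kept a value below 0, F11r and Tjp1 being the exceptions. TPM calls made up 50.0% of all genes as higher and 3.68% as lower. Without control 1, 2 or 3 the number of members called was 16, 17 and 17 in place of 32, and that of all genes 2490, 2643 and 2815 in place of 4948.

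**Figure D1:**
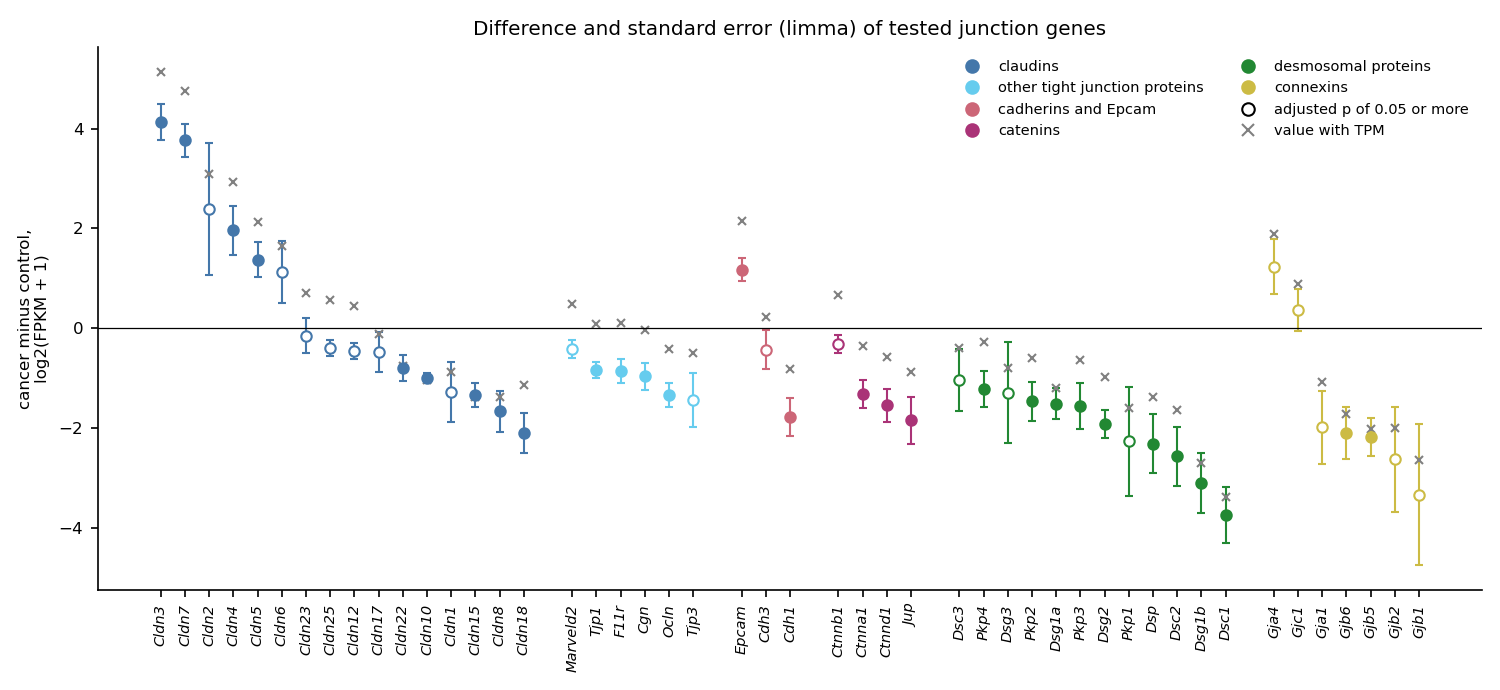
Difference between cancers and controls of tested members on the log2(FPKM + 1) scale, with its standard error from limma and grouped by family, filled where the adjusted p is below 0.05 and with a grey cross for the value with TPM. A few claudins, Epcam and the connexins Gja4 and Gjc1 stand above 0, and all 12 desmosomal genes lie below it in both scalings.

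The claudins changed in both directions, and their proportions to each other differed between the groups. Of 16 tested, 4 rose and 5 fell, and the median difference was -0.43 (0.50 on TPM). Cldn3, a barrier-forming claudin of glandular epithelia, stood at 47, 25, 31, 20 and 64 FPKM in cancers 1 to 5 and at 1 in each control. Every cancer lay far above every control, and this was the largest rise of a member on the log2(FPKM + 1) scale. The difference of the group means on this log2 scale was 4.14 (standard error, SE, 0.36, adjusted p = 0.00078 from limma).

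Cldn7, a claudin that also binds Epcam, had 93, 101, 55, 58 and 143 FPKM in the cancers against 6, 4 and 6 in the controls. All cancers lay far above all controls, with a 16.9-fold difference of the means. Its log2 difference was 3.77 (SE 0.33, adjusted p = 0.00078 from limma). Cldn4, the neighbour of Cldn3 on chromosome 5, had 24, 22, 57, 20 and 90 FPKM in the cancers against 8, 9 and 8 in the controls. Cancers 3 and 5 were high and the other 3 close to each other, and the groups did not overlap. The log2 difference was 1.96 (SE 0.50, adjusted p = 0.022 from limma). This call was lost without cancer 3 (1.8, adjusted p = 0.051 from limma) and without control 1, 2 or 3 (1.94, 2.02 and 1.94, adjusted p = 0.075, 0.064 and 0.072 from limma), while those of Cldn3 and Cldn7 were kept without any one sample.

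Cldn18 went the other way. It had 86, 293, 103, 162 and 115 FPKM in the cancers against 742, 535 and 521 in the controls. Every cancer lay below every control, and the mean of the controls was 3.95 times that of the cancers. The log2 difference was -2.10 (SE 0.40, adjusted p = 0.0075 from limma). It stayed -1.13 with TPM (adjusted p = 0.013 from limma). Pit and neck cells, which express Cldn18, had the summed marker FPKM given above. Cancer 2, with the highest pit and neck sum of the cancers, was also the highest of them in Cldn18. The part of these cells in the Cldn18 values was not tested.

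The share of each claudin in the summed claudin FPKM of a sample does not depend on how a library was scaled. Cldn18 took 87.7% ± 1.48 (SD, n = 3) of it in the controls and 37.7% ± 12.8 (SD, n = 5) in the cancers. Cldn7 took 0.791% ± 0.182 and 22.8% ± 6.61, Cldn4 1.25% ± 0.260 and 11% ± 6.95, and Cldn3 0.150% ± 0.0255 and 9.94% ± 4.73. Cancer 1, in which Cldn7 took 31.8% and Cldn18 29.5%, and cancer 5, with 28.0% and 22.5%, had the lowest Cldn18 shares. For all 4 genes the shares of the groups did not overlap, and no further test was made on them. The summed claudin FPKM was 292, 565, 296, 324 and 511 in the cancers against 830, 613 and 602 in the controls. With TPM the groups overlapped and the order of their means turned, with sums of 822 ± 236 (SD, n = 5) in the cancers and 722 ± 134 (SD, n = 3) in the controls. The ratio of Cldn7 to Cldn18 was 0.712 ± 0.422 (SD, n = 5) in the cancers and 0.00903 ± 0.00218 (SD, n = 3) in the controls. Ratios, here and further on, were picked with the levels already known.

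**Figure D2:**
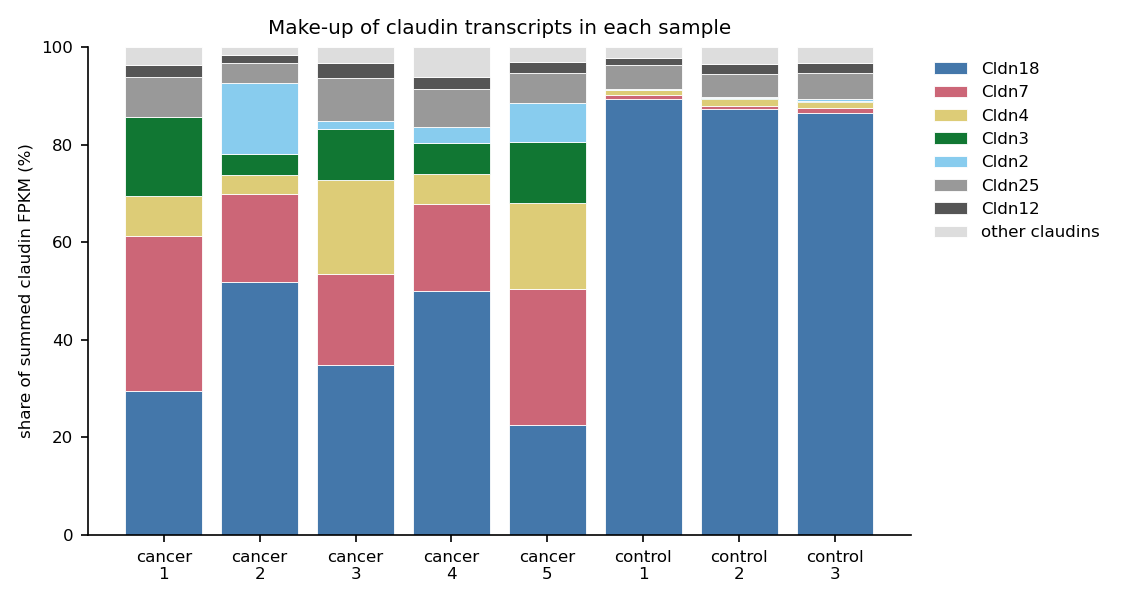
Share of each claudin in the summed claudin FPKM of each sample, in percent. Cldn18 fills 86.5% to 89.4% of the bars of the 3 controls and 22.5% to 51.9% of those of the 5 cancers, where Cldn7, Cldn4 and Cldn3 take larger shares than in any control.

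Cldn2, a claudin that forms cation channels, had 0, 82, 5, 11 and 41 FPKM in the cancers against 1, 1 and 2 in the controls. Cancers 2 and 5 were far above the others and cancer 1 was listed at 0. Its log2 difference of 2.39 (SE 1.32, adjusted p = 0.18 from limma) did not pass the test with all samples, and without cancer 1 it was 3.29 (adjusted p = 0.037 from limma). Cldn6, a claudin of embryonic epithelia, was listed at 0 in the controls and had FPKM of 4, 0, 1, 4 and 0 in the cancers (log2 difference 1.13, adjusted p = 0.18 from limma). Cldn6 passed the filter through the cancers alone, so a higher value there was built in.

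Cldn5, the claudin of vascular endothelium, had 3, 2, 2, 4 and 1 FPKM in the cancers against 0, 1 and 0 in the controls. The lowest cancer equalled the highest control, and the log2 difference was 1.37 (SE 0.35, adjusted p = 0.023 from limma). It was lost without control 1 or 3 (1.20 in both, adjusted p = 0.090 and 0.087 from limma). The summed FPKM of 7 endothelial markers was 59, 39, 46, 38 and 18 in the cancers against 13, 18 and 14 in the controls, and its part in the Cldn5 values was not tested.

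Among the other claudins that fell, Cldn8 had 0, 1, 0, 2 and 1 FPKM in the cancers against 3, 6 and 4 in the controls. Its groups did not overlap, with a log2 difference of -1.66 (adjusted p = 0.019 from limma), lost without control 2 or 3 (-1.44 and -1.69, adjusted p = 0.076 and 0.060 from limma). With TPM (-1.38, adjusted p = 0.068 from limma) and with pseudocounts of 0.1 and 0.01 (adjusted p = 0.068 and 0.14 from limma) it was not called either. Cldn10 and Cldn15 were listed at 0 in all cancers and at 1 to 3 in the controls, and Cldn22 was listed at 1 in each control and in cancer 2 and at 0 elsewhere. These rest on single steps of the rounded values. Cldn10 and Cldn15 passed the filter through the controls alone, so a lower value in the cancers was built in, and without them 25 members were called lower and 28 were lower without overlap. The Cldn22 call of -0.80 (adjusted p = 0.045 from limma) was lost without any one sample but cancer 2, with values of -0.75 or -0.80. Cldn25, which RefSeq calls Cldnd1 and which is no typical claudin, was the most abundant claudin after Cldn18 in the controls. It had 24, 23, 26, 25 and 31 FPKM in the cancers against 42, 29 and 32 in the controls. Its groups overlapped and the log2 difference was -0.39 (adjusted p = 0.090 from limma; 0.56 with TPM). Cldn1, Cldn12, Cldn17 and Cldn23 did not pass the test either.

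**Figure D3:**
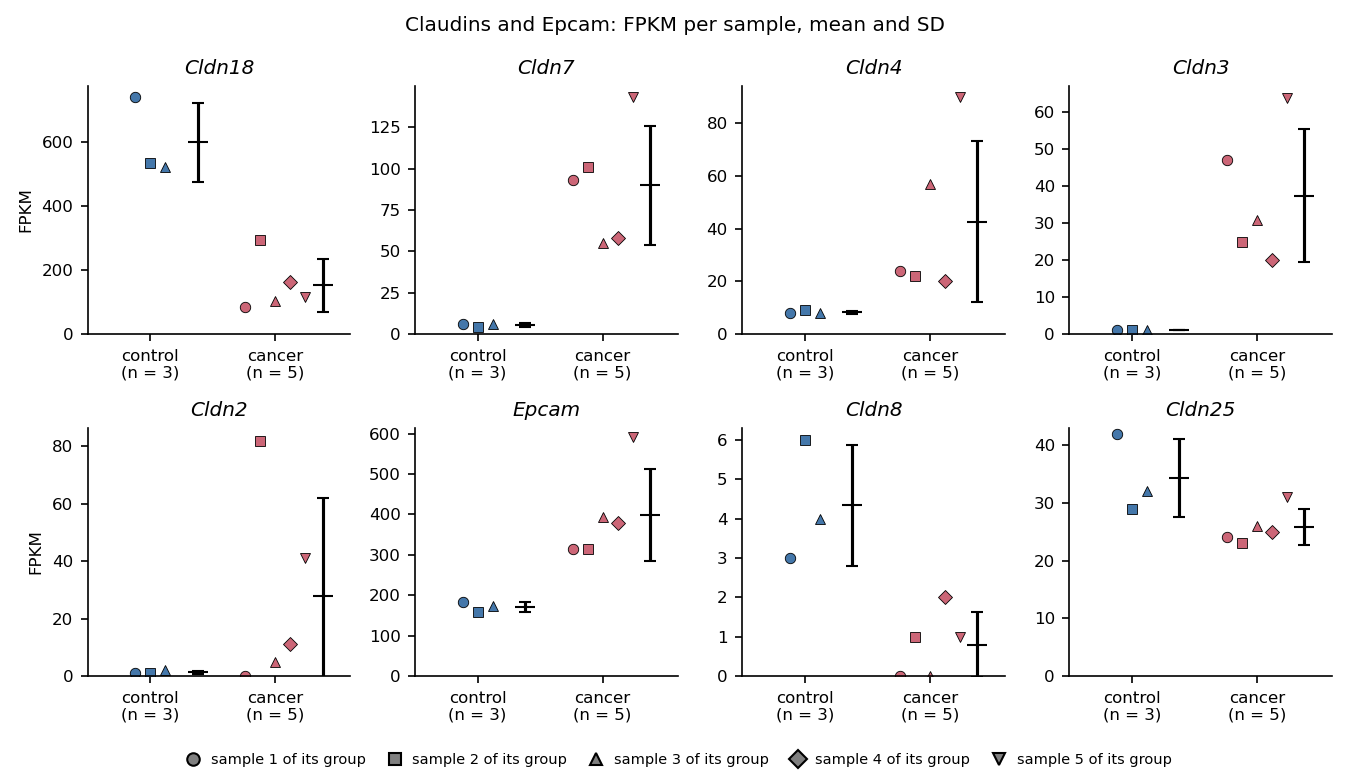
FPKM in each sample for 7 claudins and Epcam, with the mean and SD of each group beside the points (error bars are cut at 0). The 3 controls of Cldn3, Cldn4, Cldn7 and Epcam lie below all 5 cancers, and those of Cldn18 and Cldn8 above them.

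Of the 7 other tight junction genes, 5 fell, none rose and the median log2 difference was -0.96 (-0.04 with TPM, where none was called). Ocln, which encodes occludin, had 9, 16, 10, 12 and 19 FPKM in the cancers against 37, 30 and 34 in the controls. All cancers lay below all controls, with a log2 difference of -1.33 (SE 0.24, adjusted p = 0.0070 from limma) that was kept without any one sample. Tjp1, the zonula occludens scaffold ZO-1, had 13, 14, 14, 14 and 20 FPKM in the cancers against 28, 29 and 25 in the controls. The log2 difference was -0.84 (SE 0.16, adjusted p = 0.0074 from limma) and turned to 0.09 with TPM.

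Tjp3, the ZO-3 scaffold, had 8, 47, 17, 35 and 36 FPKM in the cancers against 79, 51 and 75 in the controls. The groups did not overlap, but the difference missed the threshold (log2 difference -1.43, adjusted p = 0.072 from limma). Its row overlaps Apba3 in the table, and reads of the pair may not be separable.

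F11r, the junctional adhesion molecule A, had 41, 69, 56, 65 and 77 FPKM in the cancers against 142, 102 and 93 in the controls. Its groups did not overlap (log2 difference -0.86, adjusted p = 0.027 from limma), but with TPM the value was 0.10. Cgn, the adaptor cingulin, had 9, 15, 9, 10 and 20 FPKM in the cancers against 26, 24 and 23 in the controls (-0.96, adjusted p = 0.029 from limma; -0.04 with TPM). Marveld2, tricellulin, had 6, 9, 8, 8 and 11 FPKM in the cancers against 12, 10 and 12 in the controls, with overlap and no call (-0.41, 95% confidence interval -0.84 to 0.02, adjusted p = 0.12 from limma; 0.49 with TPM). The calls of F11r and Cgn depended on single samples. F11r was lost without cancer 3 or control 1 or 2 (-0.84, -0.68 and -0.92, adjusted p up to 0.11 from limma) and Cgn without cancer 1, 3 or 4 or any control (-0.87 to -1.0, adjusted p up to 0.098).

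At the adherens junction E-cadherin fell and Epcam rose. Cdh1 had 52, 173, 70, 112 and 121 FPKM in the cancers against 390, 304 and 318 in the controls. Every cancer was below every control, cancer 1 being the lowest and cancer 2 the highest. The log2 difference was -1.78 (SE 0.38, adjusted p = 0.012 from limma), -0.81 with TPM (adjusted p = 0.041), and -1.67 without control 1, where the call was just lost (adjusted p = 0.051 from limma). Relative to Krt8, a marker of simple epithelium, Cdh1 was 0.103 to 0.251 in the cancers and 0.125 to 0.151 in the controls, with overlap. Cldn18 per Cdh1 also overlapped, at 0.95 to 1.69 in the cancers and 1.64 to 1.9 in the controls. No promoter window of Cdh1 was in the table.

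Epcam, an epithelial adhesion molecule that does not need calcium, had 314, 315, 394, 379 and 592 FPKM in the cancers against 183, 159 and 173 in the controls. All cancers lay above all controls, with a 2.32-fold difference of the means. The log2 difference was 1.17 (SE 0.23, adjusted p = 0.0092 from limma). Epcam per Cdh1 was 6.04, 1.82, 5.63, 3.38 and 4.89 in the cancers against 0.469, 0.523 and 0.544 in the controls, so Cdh1 exceeded Epcam in every control and Epcam exceeded Cdh1 in every cancer. Cdh3, P-cadherin, had 1, 1, 2, 5 and 1 FPKM in the cancers against 2, 3 and 3 in the controls (log2 difference -0.43, adjusted p = 0.41 from limma; 0.22 with TPM; -0.72, adjusted p = 0.037, without cancer 4). Cdh17 was listed at 0 in every sample.

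Of the 4 catenins, 3 fell and beta-catenin was not called, with a median log2 difference of -1.43 (-0.46 with TPM, where none was called lower). Ctnnd1 had 25, 71, 34, 50 and 59 FPKM in the cancers against 143, 125 and 129 in the controls. The groups did not overlap (log2 difference -1.54, SE 0.33, adjusted p = 0.012 from limma; -0.58 with TPM). Ctnna1 had 51, 120, 65, 107 and 82 FPKM in the cancers against 223, 197 and 191 in the controls. It too was apart (-1.32, SE 0.28, adjusted p = 0.012 from limma; -0.35 with TPM; -1.25, adjusted p = 0.053, without control 1), and its row overlaps Lrrtm2. Jup, which works in both desmosomes and adherens junctions, had 14, 53, 25, 64 and 48 FPKM in the cancers against 126, 121 and 145 in the controls. Its log2 difference was -1.84 (adjusted p = 0.022 from limma; -0.88 with TPM). Without cancer 3 or control 1, 2 or 3 it was -1.71, -1.86, -1.89 and -1.76 and lost its call (adjusted p = 0.053, 0.071, 0.064 and 0.076 from limma).

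Ctnnb1 had 166, 199, 128, 145 and 164 FPKM in the cancers against 224, 200 and 169 in the controls. The groups overlapped, and the log2 difference was -0.31 (95% confidence interval -0.73 to 0.11, adjusted p = 0.21 from limma). It was 0.67 with TPM (adjusted p = 0.024 from limma) and 0.19 after quantile normalization, so its direction depended on the scaling. Relative to Cdh1, which needs no scaling, Ctnnb1 was 1.76 ± 0.838 (SD, n = 5) in the cancers and 0.588 ± 0.0643 (SD, n = 3) in the controls. Ctnna1 per Cdh1 was 0.847 ± 0.149 and 0.607 ± 0.0385, and Ctnnd1 per Cdh1 was 0.462 ± 0.0334 and 0.395 ± 0.0243. In the ratios of Ctnnb1 and Ctnna1 every cancer lay above every control. In that of Ctnnd1 only cancer 2 (0.41) did not exceed the highest control (0.411).

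**Figure D4:**
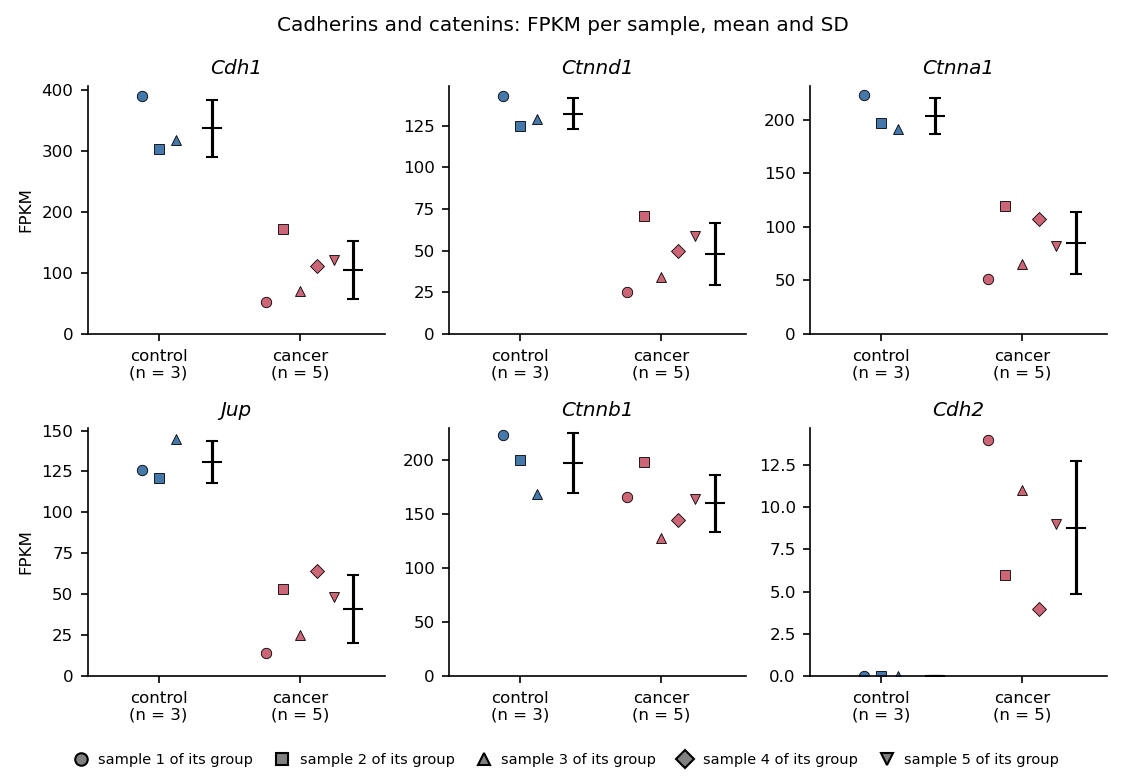
FPKM in each sample for Cdh1, the catenins and, for comparison, N-cadherin (Cdh2), with the mean and SD of each group beside the points. Cdh1, Ctnnd1, Ctnna1 and Jup of all 5 cancers lie below the 3 controls, Ctnnb1 overlaps, and Cdh2 is listed at 0 in the controls and at 4 to 14 in the cancers.

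All 12 desmosomal genes tested had a negative log2 difference in both scalings, and 9 fell, with a median of -1.73 (-1.08 with TPM, where 5 were called lower). In the isoforms of simple epithelium, Dsg2 had 15, 25, 12, 20 and 25 FPKM in the cancers against 96, 64 and 63 in the controls. Every cancer was below every control, with a log2 difference of -1.91 (SE 0.28, adjusted p = 0.0032 from limma). Dsg2 per Cdh1 was 0.198 ± 0.0552 (SD, n = 5) in the cancers and 0.218 ± 0.0249 (SD, n = 3) in the controls. Dsc2 had 5, 29, 8, 31 and 18 FPKM in the cancers against 128, 75 and 81 in the controls. It was apart in the same way (-2.56, SE 0.59, adjusted p = 0.015 from limma; -2.32, adjusted p = 0.066, without control 1).

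Dsp, the linker to keratin filaments, had 8, 34, 15, 52 and 45 FPKM in the cancers against 107, 129 and 155 in the controls. No sample overlapped, and the log2 difference was -2.31 (SE 0.59, adjusted p = 0.021 from limma). It lost its call without cancer 3 or control 1, 2 or 3 (-2.13, -2.44, -2.31 and -2.18, adjusted p = 0.051, 0.061, 0.067 and 0.076 from limma). Of the plakophilins, which strengthen the plaque, Pkp2, Pkp3 and Pkp4 fell. Pkp3 had 6, 28, 10, 23 and 18 FPKM in the cancers against 42, 40 and 56 in the controls (-1.55, adjusted p = 0.036 from limma), Pkp4 had 9, 26, 9, 19 and 19 against 38, 38 and 33 (-1.21, adjusted p = 0.035), and Pkp2 was -1.46 (adjusted p = 0.025). Each of these 3 calls was lost without cancer 3 and without any one control, Pkp3 also without cancer 5 and Pkp4 without cancer 1 (-1.04 to -1.64, adjusted p between 0.056 and 0.12 from limma). With TPM none of the 3 was called, at -0.59, -0.63 and -0.28 for Pkp2, Pkp3 and Pkp4 (adjusted p = 0.18, 0.17 and 0.42 from limma).

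In the squamous isoforms, Dsc1 had 0, 0, 1, 1 and 4 FPKM in the cancers against 14, 28 and 32 in the controls. It showed the largest fall of a member on the log2(FPKM + 1) scale, with a difference of -3.74 (SE 0.56, adjusted p = 0.0035 from limma). Dsg1b had 0, 0, 1, 2 and 4 FPKM in the cancers against 9, 18 and 24 in the controls (-3.09, adjusted p = 0.0082 from limma), and Dsg1a had 0, 0, 1, 1 and 1 against 3, 3 and 4 (-1.51, adjusted p = 0.011). The call of Dsg1a was lost with TPM (-1.19, adjusted p = 0.070 from limma) and with pseudocounts of 0.1 and 0.01 (adjusted p = 0.057 and 0.13 from limma). With a pseudocount of 0.01 those of Dsc1 and Dsg1b were lost too (adjusted p = 0.052 and 0.083 from limma). Dsg1a, Dsg1b and Dsg1c are near-identical copies, so the split of reads among them is uncertain. Dsg3 had 0, 0, 4, 18 and 7 FPKM in the cancers against 5, 9 and 12 in the controls. Cancer 4 exceeded every control, so the groups overlapped, and the log2 difference was -1.29 (adjusted p = 0.34 from limma). Pkp1 had FPKM of 0, 3, 8, 38 and 16 against 23, 36 and 51 (-2.26, adjusted p = 0.14 from limma), and Dsc3 3, 0, 2, 8 and 2 against 4, 7 and 6 (-1.04, adjusted p = 0.21). Cancers 1 and 2 had the lowest or next to lowest values of these genes apart from Dsc3, and cancer 4 the highest of Dsg3, Dsc3 and Pkp1. The squamous marker sums given above were lowest in cancers 1 and 2 and highest in cancer 4, and their part in these values was not tested.

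Of 9 connexins tested, 4 fell and none rose, with a median log2 difference of -2.08 (-1.62 with TPM, where 2 were called lower). The summed connexin FPKM was 16, 146, 41, 140 and 83 in the cancers against 337, 292 and 366 in the controls. Gjb1, connexin 32 of glandular epithelia and the most abundant connexin in the controls, had 0, 127, 12, 46 and 33 FPKM in the cancers against 241, 144 and 206 in the controls. The groups did not overlap, but the cancers ranged from 0 to 127 and the log2 difference of -3.33 missed the threshold (SE 1.41, adjusted p = 0.099 from limma; two-sided exact permutation test p = 0.054, where 0.018 is the smallest it can give).

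Gja1, connexin 43, had 4, 9, 16, 62 and 22 FPKM in the cancers against 52, 76 and 67 in the controls. Cancer 4 alone lay within the range of the controls, and the log2 difference was -1.98 (adjusted p = 0.067 from limma) and -2.46 without cancer 4 (adjusted p = 0.015). Gjb2, connexin 26, had 0, 2, 5, 22 and 21 FPKM in the cancers against 24, 35 and 60 in the controls (-2.62, adjusted p = 0.085 from limma). Gjb5 and Gjb6, connexins known from stratified epithelium, fell. Gjb5 had 0, 0, 0, 1 and 1 FPKM in the cancers against 3, 8 and 5 in the controls (-2.18, adjusted p = 0.0056 from limma). Gjb6 had 0, 0, 1, 3 and 2 FPKM in the cancers against 5, 7 and 10 in the controls (-2.10, adjusted p = 0.019 from limma). Both were apart from the controls, and the Gjb6 call was lost without control 2 or 3 (-2.11 and -1.88, adjusted p = 0.061 and 0.074 from limma) and with TPM (-1.72, adjusted p = 0.061 from limma). Gja4, an endothelial connexin, had 4, 2, 4, 2 and 0 FPKM in the cancers against 0, 0 and 1 in the controls (1.23, adjusted p = 0.12 from limma; 1.62, adjusted p = 0.017, without cancer 5).

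**Figure D5:**
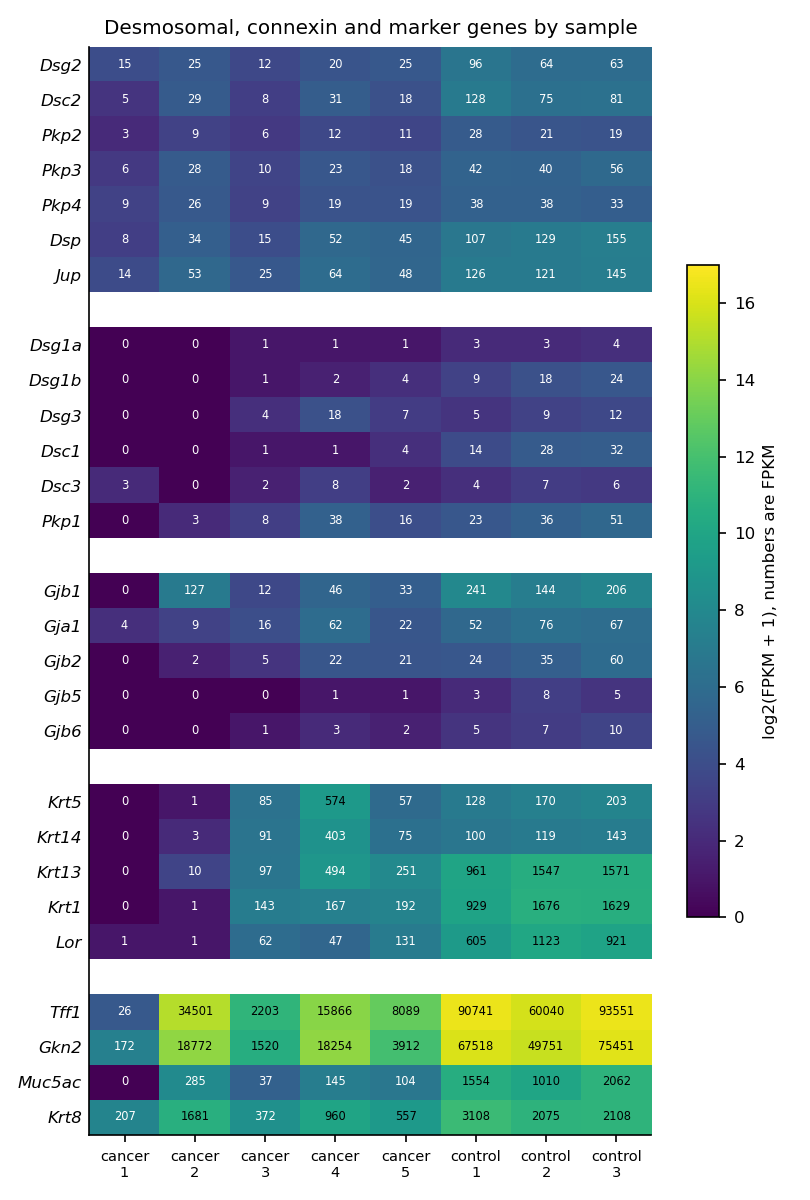
FPKM of desmosomal genes, connexins and marker genes in each sample, coloured by log2(FPKM + 1) with the FPKM printed in each cell, in blocks of widely expressed desmosomal genes with Jup, squamous isoforms, connexins, squamous markers, and pit cell markers with Krt8. Cancer 1 is listed at 0 for Gjb1, Gjb2, Pkp1 and Dsg3, and cancer 4 is the highest of the cancers in Krt5, Krt13, Dsg3 and Gja1.

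The cancers also differed among themselves. Cancer 1 had the lowest value of the 5 in 23 of the 51 tested members and in 14 of the 27 that fell, while cancers 2, 4 and 5 shared most of the highest values, with 12, 15 and 14 of the 51. Cancer 1 was the cancer with the smallest squamous and pit and neck marker sums. Among the 32 called members, 13 kept their call without any one of the 8 samples, among them Cldn3, Cldn7 and Epcam, which rose, and Cldn18, Ctnnd1, Dsc1, Dsg1a, Dsg1b, Dsg2, Gjb5, Ocln and Tjp1, which fell. Cldn10 and Cldn15 are not counted here, since without a control they no longer had enough values above 0 to be tested.

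Several members lie side by side in the genome. Neighbours were members within 200 kb of each other. The Dsc and Dsg genes lie on chromosome 18 between 19960930 and 20604526 (mm10), and of 9 genes there 7 were tested and 5 fell. Cldn13, Cldn4 and Cldn3 lie on chromosome 5 between 134914250 and 135001350, where both tested genes rose and Cldn13 was listed at 0. The Cldn3 row overlaps Wbscr25 in the table. Cdh3 and Cdh1 are neighbours on chromosome 8, and Cdh1 alone was called.

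The partners of the junction proteins are 75 genes of lists drawn up separately from the members. Of 69 tested, 15 rose (21.7%, against 16.2% of all genes) and 25 fell (36.2%, against 18.3%), with a median log2 difference of -0.46. With TPM the median was 0.47, and 29 were called higher and 5 lower, against 50.0% and 3.68% of all genes. Without any one control 24 were called in place of 40. At the adherens junction Cdh2, N-cadherin, was listed at 0 in the controls and had FPKM of 14, 6, 11, 4 and 9 in the cancers (adjusted p = 0.0012 from limma). Cdh2 passed the filter through the cancers alone, so a higher value there was built in. The same holds for Ctnna2, Magi2, Gjd2 and Panx2 among the partners counted as risen. The nectin Pvrl4 (0, 3, 2, 6 and 5 against 11, 15 and 16) and the actin binder Lima1 (25, 67, 28, 28 and 33 against 121, 106 and 106) fell, with log2 differences of -2.10 and -1.69 (adjusted p = 0.032 and 0.0070 from limma). Of 16 such partners tested, 5 rose and 4 fell. With TPM 10 were called higher and 1 lower, where 50.0% of all genes were called higher and 3.68% lower.

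Of 22 tight junction partners, 6 rose and 8 fell, with a median of -0.06, while with TPM 12 were called higher and 3 lower, with a median of 0.81. Over all genes tested the medians were -0.04 and 0.81, and 50.0% were called higher with TPM. Ildr1, an angulin of tricellular junctions, had 15, 8, 20, 9 and 15 FPKM in the cancers against 1, 0 and 1 in the controls, with a log2 difference of 3.11 (adjusted p = 0.0015 from limma). The polarity scaffolds Pard6b (2, 10, 3, 7 and 6 against 32, 24 and 24) and Pard3 (2, 6, 2, 8 and 8 against 19, 24 and 23) fell (-2.21 and -2.05, adjusted p = 0.0079 and 0.012 from limma). Of 8 cell polarity genes 5 fell and none rose, among them Llgl2 (-1.44), Prkcz (-0.99) and Prkci (-0.88), with adjusted p of 0.0046, 0.0055 and 0.0070 from limma. With TPM none of these 8 was called lower and 1 was called higher, the median went from -0.74 to 0.16, and among the 5 Prkci (0.03), Scrib (0.33) and Dlg1 (0.30) turned.

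The desmosome partners Perp, Evpl and Ppl, a membrane protein and a pair of plakins of stratified epithelium, all fell, and with TPM only Evpl of the 3 was called lower. Perp had 25, 102, 77, 212 and 110 FPKM in the cancers against 358, 393 and 373 in the controls (log2 difference -2.11, adjusted p = 0.029 from limma), and Evpl and Ppl were -2.03 and -1.88 (adjusted p = 0.0082 and 0.021 from limma). Gjd2, a connexin of neurons and endocrine cells, was listed at 0 in the controls and had FPKM of 5, 6, 4, 2 and 2 in the cancers (adjusted p = 0.0032 from limma). Panx2, also listed at 0 in the controls, was at 1 in 4 cancers. Both genes passed the filter through the cancers alone, so a higher value there was built in. Within the cancers Gjd2 was highest in cancer 2, which had the lowest endocrine marker sum, but by a single rounded step over cancer 1. The part of endocrine cell content in these values was not tested.

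Epithelial transcription and splicing factors, 11 genes, all had negative log2 differences, 4 of them called, with a median of -1.24, but with TPM none was called, the median was -0.29, and Esrp1 (0.42), Ehf (0.90) and Klf5 (0.06) turned. Ovol1 had 0, 3, 1, 4 and 3 FPKM in the cancers against 10, 9 and 13 in the controls (-2.07, adjusted p = 0.021 from limma), Esrp2, a splicing factor, 2, 16, 5, 16 and 15 against 41, 35 and 41 (-2.05, adjusted p = 0.035), and Grhl1 7, 6, 8, 13 and 7 against 18, 19 and 21 (-1.19, adjusted p = 0.0080). Of 6 E-box repressors tested 2 rose and 1 fell, against 16.2% and 18.3% of all genes. With TPM 4 were called higher and none lower, against 50.0% and 3.68% of all genes. Zeb1 had 5, 3, 5, 2 and 3 FPKM in the cancers against 1 in each control (1.15, adjusted p = 0.013 from limma), and Snai1 2, 3, 2, 3 and 2 against 1, 1 and 0 (1.08, adjusted p = 0.019). Snai3, which fell, had 0, 0, 0, 1 and 0 against 1 in each control (-0.80, adjusted p = 0.045 from limma). These are low values of which single steps matter, and cells other than epithelium also express Zeb1 and Snai1.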

How the data were processed

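The authors trimmed reads with cutadapt 1.8, and the submitters' processing notes name TopHat2 2.0.13 and Cuffnorm 2.2.1 with UCSC mm10 genes. The deposited FPKM were rounded to whole numbers by the authors and are treated here as a score, not as read counts, so depth and counting intervals are unknown. All 70 member loci overlapped their RefSeq gene in GRCm38.p6, and 2 have another symbol there.

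The 14357 genes that reached an FPKM of 1 in 3 or more samples were fitted together as log2(FPKM + 1). The fit used limma 3.58.1 (R 4.3.3) and its moderated statistics with a mean-variance trend, and p-values over the 14357 were adjusted by Benjamini and Hochberg's procedure and called below 0.05. Fold changes on this scale understate those of low genes. Named are the 13 members chosen singly, the most abundant of each family, and the largest changes without overlap. Other named members stand where a family's account needs them. For partners, up to 3 called genes per list are named. Members and lists were chosen with earlier results of these data known. Alternatives were other pseudocounts, filters, TPM, quantile normalization, no trend, array weights, a replicate block and leaving out each sample. A few members that enter the counts are not reported singly here.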

Additional observations from a re-analysis of the deposited data

Results flagged for a closer look

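In groups of 5, the gap between the most extreme cancer and its neighbour was compared with the range of the cancers on the log2(FPKM + 1) scale, for which Dixon's limit is 0.71. Of 56 results examined 2 exceeded it, where chance gives 2.8. Cldn22 reached 1.0, because cancer 2 was listed at 1 and the other cancers at 0. Tjp1 reached 0.83, because cancer 5 stood at an FPKM of 20 and the others at 13 to 14. Groups of 3 controls were not examined.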

How the results depend on the processing

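The number of junction genes called, 32, was between 22 and 43 under other pseudocounts, filters, quantile normalization, no trend and array weights, and 17 with TPM (6 higher, 11 lower) and 15 with a replicate block. The 22 were of 34 tested with a mean FPKM minimum of 5, and the 43 came with array weights. Over all genes 4948 were called, 8148 with array weights and 1534 with the block. Leaving out 1 sample gave 16 to 33, and 16, 17 and 17 without control 1, 2 and 3. For the partners, 40 became 17 with the replicate block and 24 to 42 when 1 sample was left out, 24 without each control, and with TPM higher calls were 85.3% of the 34 against 37.5% of the 40, while over all genes TPM called 7176 higher and 528 lower against 2326 and 2622. Same-numbered samples did not deviate together (correlations -0.0211, -0.194 and -0.104), so the block rests on shared numbers only.

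Directions turned with TPM for Cdh3 (0.22), Ctnnb1 (0.67), F11r (0.10), Marveld2 (0.49), Cldn25 (0.56), Cldn12 (0.44), Cldn23 (0.70) and Tjp1 (0.094), with quantile normalization for Ctnnb1 (0.19) and Gjc1 (-0.078), and for Cldn23 when 1 sample was left out (-0.39 to 0.084, the latter without control 1). TPM rescales each library to an equal sum, and the controls' sums were larger. Over all alternatives 698 single-gene values stayed on the same side of both 0 and the threshold, 110 lost the call, 22 gained one and 11 turned. Rounding to whole FPKM limits the precision of low values.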
